A study of Mus musculus with 4 samples.

Results

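The comparison described here set 2 cultures of mouse embryonic fibroblasts (MEFs) against each other, one from embryos without cyclin G1 (G1KO) and one labelled as coming from embryos without cyclin G2 (G2KO). MEFs are primary cells grown out of minced embryos, and are a mixture of connective tissue cells from different regions of the body. RNA of each knockout culture had been hybridised together with RNA of a wild-type (WT) culture on a whole-genome 2-colour array, once with the knockout in the red dye Cy5 and once in the green dye Cy3, so that the 2 knockout cultures never shared an array. Their signals were therefore compared across arrays within each dye, as log2 signal of G1KO minus log2 signal of G2KO, and both dye-specific differences were averaged. A probe was kept when its spot was well above background in both dyes in at least 1 of the 2 knockout cultures, which held for 25539 of 41174 gene probes (62.0%), standing for 16590 of 27597 genes or other named transcripts. Of these probes, 22857 were above background in both cultures, 1056 in G1KO only and 447 in G2KO only, each in both dyes, and in the rest the dimmer culture was above background in 1 dye.

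The G1KO culture carried Ccng1-/-, an allele in which a neomycin cassette driven by the PGK promoter takes the place of every coding exon. The G2KO culture carried Ccng2-/-, whose deleted part is not given in the sources used here. The WT culture of the first pair is called WT(G1) and that of the second pair WT(G2). All 4 are labelled MEFs of C57BL/6J background in logarithmic growth without treatment, in the same serum-containing medium, although the source name of the cyclin G2 pair reads C57BL/7J. Each knockout was 1 culture, so no difference below has a check over biological replicates and no p-value is given, and the SD printed beside a difference is that between the 2 dyes, which is technical. A difference was called when it reached 2-fold, 1 on the log2 scale, in each dye with the same sign.

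Cyclin G1 and cyclin G2 are atypical cyclins, known less for driving the cell cycle than for the response to stress. Ccng1 is a direct target gene of p53, its protein recruits protein phosphatase 2A (PP2A) to MDM2, the ubiquitin ligase that limits p53, and cyclin G2 binds PP2A as well and rises in cells that stop dividing. Fibroblasts keep much of the regional identity of the tissue from which they were grown, in particular the set of Hox genes that marks position along the body axis, so that Hox genes and lineage markers tell cultures of different embryonic regions apart.

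The arrays were of similar quality in all 8 channels. Between 25366 and 27757 of 43379 gene spots were well above background, 0 spots were saturated, and between 45 and 150 were left out as outliers. Over the 25539 probes the Cy3 and Cy5 differences had a Pearson correlation of 0.93 across probes, which share arrays and are not independent. Only 1 probe was 2-fold apart in opposite directions in the 2 dyes, and the median SD between dyes was 0.07. Of 13 mesenchymal marker genes, 13 were above background in G1KO, WT(G1) and WT(G2), and 12 in G2KO, where the fibroblast activation protein gene Fap was not. Their summed linear signal was 224400 in Cy3 and 1001000 in Cy5 in G1KO, 182800 and 922800 in G2KO, 320700 and 1084000 in WT(G1), and 431800 and 1424000 in WT(G2). Most of each sum came from the bright genes S100a4, Vim, Col1a1 and Col1a2, so it says little of the dimmer markers. Y-linked genes were not above background in either knockout culture and Xist, the RNA of the inactive X chromosome, was high in both, whereas all 4 Y-linked genes were above background in both WT cultures. The knockout cultures thus had the same sex-linked pattern, and every comparison of a knockout with a WT culture also set these opposite patterns side by side. In mixed cultures of this kind, fewer cells of a type and less RNA per cell cannot be told apart.

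The targeted genes were examined first. Ccng1 (chromosome 11, 40594334 to 40594393, minus strand of mm8, the mouse build of the array's design, which is used for all probe positions here) had log2 signals of 6.97 in Cy3 and 8.40 in Cy5 in G1KO and 12.55 and 13.84 in G2KO, a difference of -5.51 ± 0.09, or 45.6-fold. The WT cultures read 12.27 and 13.56 in WT(G1) and 9.98 and 11.35 in WT(G2), so G1KO lay below all 3 other cultures, and G2KO lay with WT(G1) and above WT(G2). A second probe of Ccng1 differed by -7.51, or 182-fold. Ccng2 (chromosome 5, 94351052 to 94351111) read 10.26 in Cy3 and 11.74 in Cy5 in G1KO and 11.35 and 12.81 in G2KO, so that it was higher in the culture labelled G2KO by 2.11-fold, a log2 difference of -1.08 ± 0.02. WT(G2), at 11.20 and 12.72, lay next to G2KO, and WT(G1), at 9.89 and 11.37, next to G1KO. The Ccng2 signal thus does not separate the culture labelled G2KO from its WT, and since the deleted part of Ccng2 is not known here, the probe may lie outside it and then checks nothing. The study reported genotyping its G2KO MEFs by RT-PCR with cyclin G2 primers. Within the array data, every statement on G2KO below rests on its label. The related cyclin gene Ccni had a log2 difference of -0.39 ± 0.05 by its brightest probe and none of its 5 probes was called. Gak, the cyclin G-associated kinase, had one of -0.07 ± 0.04.

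Between the knockout cultures, 3474 of 25539 probes (13.6%) were called, of which 1809 (7.08%) were higher in G1KO and 1665 (6.52%) higher in G2KO. Counted with 1 probe per gene, 2509 of 16590 genes (15.1%) were called, with 1308 (7.88%) higher in G1KO and 1201 (7.24%) higher in G2KO, around a median over all genes of -0.06. Counts of called members of the gene lists below are to be read beside these shares. Part of these calls joined a culture with signal to one without: in 494 of the 1809 and 286 of the 1665 the lower culture was below background in both dyes. Among the 14852 genes above background in both cultures, 1814 (12.2%) were called, 866 (5.83%) higher in G1KO and 948 (6.38%) higher in G2KO, and the direction of the small majority was the other one. At larger sizes the calls leaned to G1KO: 1151 probes (4.51%) were 4-fold apart, 723 of them higher in G1KO and 428 higher in G2KO, and 196 (0.767%) were 16-fold apart, 144 and 52.

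The same construction was run on every other pair of the 4 cultures. The WT cultures were 2-fold apart in 4329 of 26085 probes (16.6%), which is more than between the knockout cultures. G1KO and its own WT differed in 2239 of 25541 (8.77%), G2KO and its own WT in 2593 of 25431 (10.2%), G1KO and WT(G2) in 3027 of 25909 (11.7%), and G2KO and WT(G1) in 4434 of 25589 (17.3%). The pairs share cultures and are not independent of each other. Of the 6 pairs, the 2 in which a knockout faced the WT of its own arrays had the fewest calls.

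**Figure D1:**
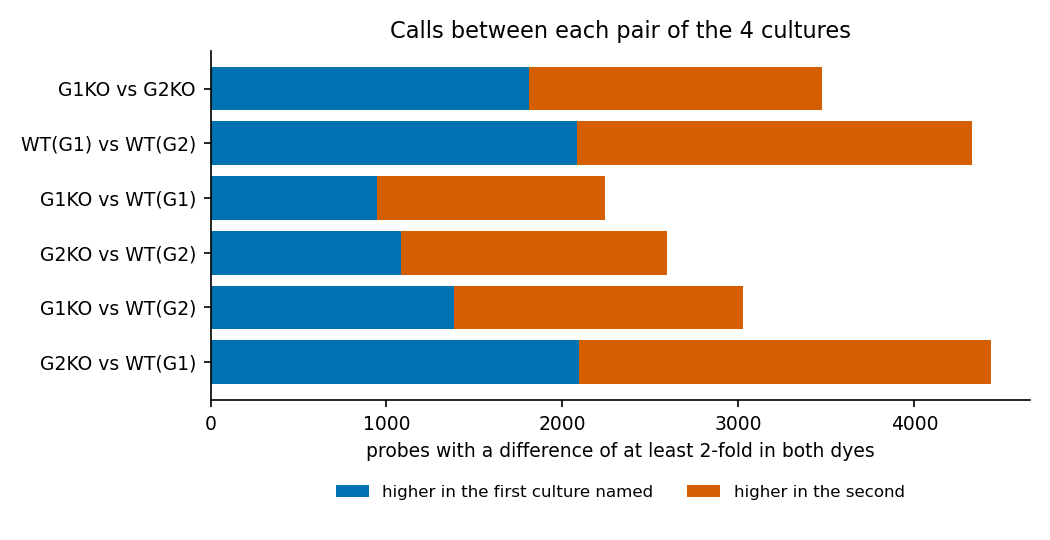
Number of probes (horizontal axis) with a difference of at least 2-fold in both dyes for each of the 6 pairs of cultures, split by the culture with the higher signal. The WT cultures differed in 4329 probes and the knockout cultures in 3474, against 2239 and 2593 for each knockout with its own WT.

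Where the WT cultures lay was then counted for each called probe, by asking which knockout level each WT level was nearer to. Among probes higher in G1KO that had a value in both WT cultures, each WT was nearer to its own knockout in 770 of 1808 (42.6%), both were nearer to G1KO in 636 (35.2%), both were nearer to G2KO in 203 (11.2%), and each was nearer to the other knockout in 199 (11.0%). Among probes higher in G2KO, the corresponding counts were 768 (46.2%), 609 (36.6%) nearer to G1KO, 155 (9.32%) nearer to G2KO and 132 (7.93%) of 1664. The most frequent arrangement was therefore one in which the knockout difference was also present between the 2 WT cultures, and the next one in which G2KO stood apart from the other 3 cultures. Probes in which G1KO alone stood apart, as Ccng1 does, were fewer. The pair and the culture cannot be told apart from the genotype in the first arrangement.

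The largest difference measured in both cultures with G1KO higher was that of Plac8, which encodes a small cysteine-rich protein (chromosome 5, 100794153 to 100794212, minus strand). It read 14.00 in Cy3 and 15.45 in Cy5 in G1KO and 4.91 and 5.56 in G2KO, a difference of 9.50 ± 0.56 (722-fold), and WT(G1) sat with G1KO at 14.03 and 15.46 while WT(G2) sat with G2KO at 4.34 and 4.92. Of the other 11 in this direction, Krt14 and Krt19 encode keratins, Dlk1 encodes an imprinted Notch-related membrane protein, and Gas6 the ligand of the TAM receptor kinases. Krt14 (chromosome 11, 100019459 to 100020064) differed by 6.72 ± 1.10, Krt19 (chromosome 11, 99957168 to 99957227) by 6.82 ± 0.14, Dlk1 (chromosome 12, 109908264 to 109908323) by 6.61 ± 0.04 and Gas6 (chromosome 8, 13465421 to 13465480) by 6.58 ± 0.36. Dlk1 read 14.48 in Cy3 and 15.75 in Cy5 in G1KO and 7.84 and 9.16 in G2KO, with 12.42 and 14.22 in WT(G1) and 9.27 and 10.52 in WT(G2), so that both WT cultures lay between the knockout cultures. The rest were the protocadherin gene Pcdh17 at 7.51 ± 0.76, the glycosyltransferase gene Galnt18 at 6.98 ± 0.53, the LIM protein gene Crip1 at 6.58 ± 0.69, the tetraspanin-related Tm4sf1 at 6.38 ± 0.18, Hoxa7 at 6.91 ± 0.20, and the prolactin family genes Prl2c5 at 6.21 ± 0.39 and Prl2c3 at 6.19 ± 0.28. Prl2c5 and Prl2c3 are near-identical copies, and their probes may report on one another.

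In the direction of G2KO, the largest measured difference was that of En2, the engrailed homeobox gene of the midbrain and hindbrain (chromosome 5, 28502715 to 28502775). It read 4.45 in Cy3 and 4.53 in Cy5 in G1KO and 13.69 and 14.89 in G2KO, a difference of -9.80 ± 0.79 or 890-fold, and both WT cultures lay near the low level, at 4.55 and 4.92 in WT(G1) and 5.61 and 7.26 in WT(G2). Cyp26b1, which encodes an enzyme that breaks down retinoic acid (chromosome 6, 84537616 to 84537675, minus strand), read 5.90 in Cy3 and 7.37 in Cy5 in G1KO and 12.88 and 14.33 in G2KO, a difference of -6.97 ± 0.01 or 125-fold, with the WT cultures between them at 8.03 and 9.46 in WT(G1) and 10.24 and 11.89 in WT(G2). Wscd2 (-6.58 ± 0.38), the synaptic vesicle gene Snap91 (-6.41 ± 0.35), Sobp (-5.97 ± 0.17) and Tceal6 (-5.88 ± 0.79) were low in WT(G1) and high in WT(G2), where Wscd2 and Sobp exceeded their level in G2KO. The desmosomal plakophilin gene Pkp1 differed by -6.16 ± 0.45, the GTPase-activating protein gene Arhgap6 by -6.11 ± 0.14, the actin-linked adaptor gene Sorbs2 by -5.95 ± 0.36, Lhfpl4 by -5.05 ± 0.18 and the phosphatase inhibitor gene Ppp1r1a by -4.95 ± 0.23. Ccng1 itself ranked among these 12. Not every probe of these genes gave the same size: another probe of Wscd2 differed by only -0.70 and a second of Lhfpl4 by -1.02, and neither was called.

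**Figure D2:**
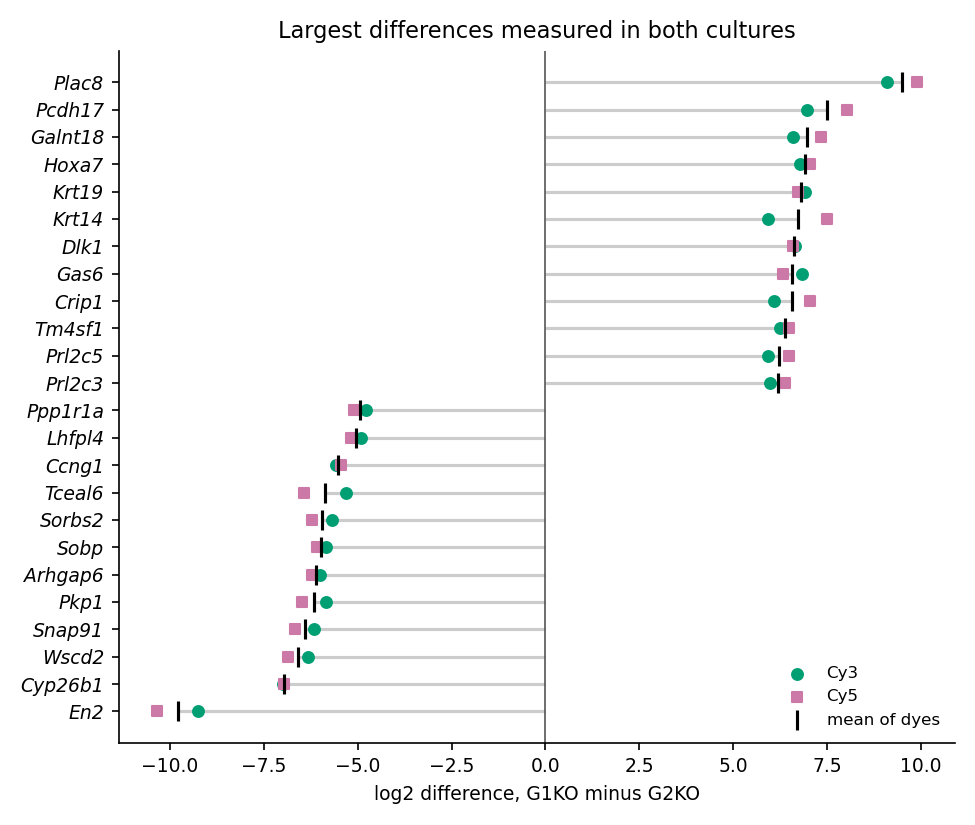
Log2 difference G1KO minus G2KO (horizontal axis) for the 12 genes in each direction with the largest difference among those above background in both cultures, with the Cy3 and Cy5 differences as separate points and their mean as a bar. Both dyes lie on the same side of 0 for all 24 genes, which a call requires, from Plac8 at 9.50 to En2 at -9.80.

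Further large differences were found where one culture was not above background, and for these only a lower bound can be given, with the dim signal raised to the level at which spots of that channel begin to be well above background. Krt18, a keratin of simple epithelia and mesothelium (chromosome 15, 101859944 to 101860003), read 14.08 in Cy3 and 15.70 in Cy5 in G1KO and 4.55 and 4.57 in G2KO and was at least 1209-fold higher in G1KO. For Pitx1, the homeobox gene of the hindlimb and jaw (chromosome 13, 55834678 to 55834737), the bound was 501-fold in favour of G1KO, with 12.88 in Cy3 and 14.35 in Cy5 in G1KO and 3.46 and 2.77 in G2KO. Hoxc9 followed at no less than 386-fold, the chloride channel regulator gene Clca3a1 at 363-fold and Cck, the gene of cholecystokinin, at 336-fold. In each of these 5 genes WT(G1) was high with G1KO, and WT(G2) was at or near the level of G2KO. In the direction of G2KO, Sox2, the transcription factor of neural progenitors (chromosome 3, 34843400 to 34843459), was at least 237-fold higher in G2KO, with 3.55 in Cy3 and 1.14 in Cy5 in G1KO and 11.75 and 12.92 in G2KO. The bounds were 205-fold for Ifi202b, of the interferon-inducible p200 family, 143-fold for the noncoding RNA Pantr1, 72.1-fold for 2610027F03Rik and 56.3-fold for the zinc finger gene Zfp536. All 5 were below background in WT(G1) too, and above it in WT(G2), where Sox2 read 5.11 and 5.99 and Ifi202b 8.96 and 10.21.

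The promoters of 5 genes are shown because these genes stand for the differences described here: 1 Hox gene and 2 keratin genes that were higher in G1KO, and 2 genes, a regulator and an enzyme gene, that were higher in G2KO. Each is the RefSeq sequence from 250 bases before to 50 bases after the gene's start in GRCm38.p6, a later build than that of the probe positions, read 5′ to 3′ on the gene's strand. The 3 short motifs below were searched on both strands and are marked by capitals. The motif TATAAA is the core of the TATA box, and matches on opposite strands can overlap. Next to it was searched the pentamer CCAAT, which nuclear factor Y binds. Also searched was GGGCGG, the GC box.
Hoxa7, chr6:52218524-52218823, minus strand: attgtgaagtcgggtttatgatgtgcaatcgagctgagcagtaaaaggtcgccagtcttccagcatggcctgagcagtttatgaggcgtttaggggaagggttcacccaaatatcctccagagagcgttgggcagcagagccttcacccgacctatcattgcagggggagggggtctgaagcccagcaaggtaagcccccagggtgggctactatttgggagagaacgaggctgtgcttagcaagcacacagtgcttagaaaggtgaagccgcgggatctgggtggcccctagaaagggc
Krt8, chr15:102004293-102004592, minus strand: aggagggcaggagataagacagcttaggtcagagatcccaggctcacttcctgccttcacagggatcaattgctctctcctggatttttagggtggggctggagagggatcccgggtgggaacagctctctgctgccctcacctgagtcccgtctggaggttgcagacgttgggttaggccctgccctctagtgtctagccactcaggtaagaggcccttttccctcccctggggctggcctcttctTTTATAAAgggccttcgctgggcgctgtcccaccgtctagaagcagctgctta
Krt18, chr15:102027966-102028265, plus strand: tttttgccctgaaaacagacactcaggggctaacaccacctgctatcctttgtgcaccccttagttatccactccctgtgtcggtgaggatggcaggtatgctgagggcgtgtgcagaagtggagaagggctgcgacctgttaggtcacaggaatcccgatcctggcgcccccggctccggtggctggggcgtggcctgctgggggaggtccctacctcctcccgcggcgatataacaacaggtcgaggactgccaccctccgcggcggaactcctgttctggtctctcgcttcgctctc
Sox2, chr3:34649745-34650044, plus strand: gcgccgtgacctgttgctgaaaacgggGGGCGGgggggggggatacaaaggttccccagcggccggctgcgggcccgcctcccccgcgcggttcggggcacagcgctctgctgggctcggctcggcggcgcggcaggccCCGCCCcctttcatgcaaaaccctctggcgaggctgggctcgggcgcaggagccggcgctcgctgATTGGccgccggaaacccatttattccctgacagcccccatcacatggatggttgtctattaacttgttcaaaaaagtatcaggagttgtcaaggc
Cyp26b1, chr6:84593761-84594060, minus strand: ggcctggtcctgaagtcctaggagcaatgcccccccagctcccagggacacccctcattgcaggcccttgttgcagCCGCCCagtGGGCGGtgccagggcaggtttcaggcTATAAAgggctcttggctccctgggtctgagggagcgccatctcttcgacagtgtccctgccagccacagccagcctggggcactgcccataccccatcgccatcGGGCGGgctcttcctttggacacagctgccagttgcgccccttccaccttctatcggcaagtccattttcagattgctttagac
Krt8 and Krt18 lie on the same chromosome and encode partner keratins, yet only Krt8 had TATAAA in this window, with 2 overlapping matches, and Krt18 and Hoxa7 had none of the 3 motifs. Sox2 had 1 CCAAT and 2 GC boxes, and Cyp26b1 had 1 TATAAA and 3 GC boxes. Of 32851 mouse promoters of the same length, 13.6% held TATAAA, 37.4% CCAAT and 35.7% GGGCGG. The number of CG pairs was 27 for Sox2, 17 for Krt18, 9 for Hoxa7 and for Cyp26b1 and 6 for Krt8, against a median of 7. These are matches of letters and say nothing of the factors bound. A promoter was at hand for 10608 of the 16590 genes, and the promoters of called genes were not compared with the rest.

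Hox genes differed as a group. Of 39 Hox genes listed, 38 were on the array and 30 entered the comparison, and 24 of these were higher in G1KO and 0 higher in G2KO, where 15.1% of all genes were called. Because a gene that is silent in one culture enters only through the other, detection over all 38 is given as well: by any probe, 30 were above background in G1KO, 9 in G2KO, 30 in WT(G1) and 5 in WT(G2). Of the 7 whose leading probe was above background in both knockout cultures, 4 were called. In 22 of the 24 called genes each WT lay nearer to its own knockout.

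The anterior Hox genes, paralogue groups 1 to 4, which are used from the hindbrain downwards, had the smaller differences, with 7 of 10 called and a median of 2.56. Hoxb2 read 10.79 in Cy3 and 11.93 in Cy5 in G1KO and 5.08 and 5.91 in G2KO, a difference of 5.87 ± 0.22 (58.4-fold), and WT(G1) was high with 11.37 and 12.66. Hoxd4 was at least 26.0-fold higher in G1KO, Hoxb3 at least 24.6-fold higher and Hoxb4 at least 7.88-fold higher. Hoxa4 and Hoxd3 were called too, and Hoxa3 and Hoxc4 were at like low levels in all 4 cultures. Thus the culture labelled G2KO was not free of Hox transcripts.

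In paralogue groups 5 to 8, which pattern the thorax, 10 of 11 genes were called and the median was 6.05. Hoxb7 read 11.50 in Cy3 and 12.89 in Cy5 in G1KO and 3.45 and 3.26 in G2KO and was at least 187-fold higher in G1KO, with WT cultures at 10.62 and 11.86 in WT(G1) and 2.63 and 2.16 in WT(G2). Hoxc6 was at least 172-fold, Hoxb6 at least 129-fold and Hoxb5 at least 35.8-fold higher, and Hoxa7 was measured in both cultures at 11.57 in Cy3 and 12.69 in Cy5 in G1KO and 4.80 and 5.63 in G2KO, 121-fold apart. A second probe of Hoxb6 differed by 0.48 and was not called. In groups 9 to 13, which pattern the lumbar to caudal trunk and the limbs, 7 of 9 detected genes of 15 on the array were called, with a median of 6.18. Hoxc9 read 12.67 in Cy3 and 13.81 in Cy5 in G1KO and 3.96 and 3.05 in G2KO, and Hoxb9, Hoxa11 and Hoxa10 were at least 225-fold, 94.5-fold and 60.3-fold higher in G1KO. Hoxa11 read 6.11 and 7.28 in WT(G1), well under its level in G1KO of 10.56 and 11.86. The most caudal genes Hoxa13, Hoxb13 and Hoxd10 to Hoxd13 were above background in neither knockout culture. With dim signals set to their bounds the medians of the 3 groups became 2.07, 3.85 and 5.67.

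**Figure D3:**
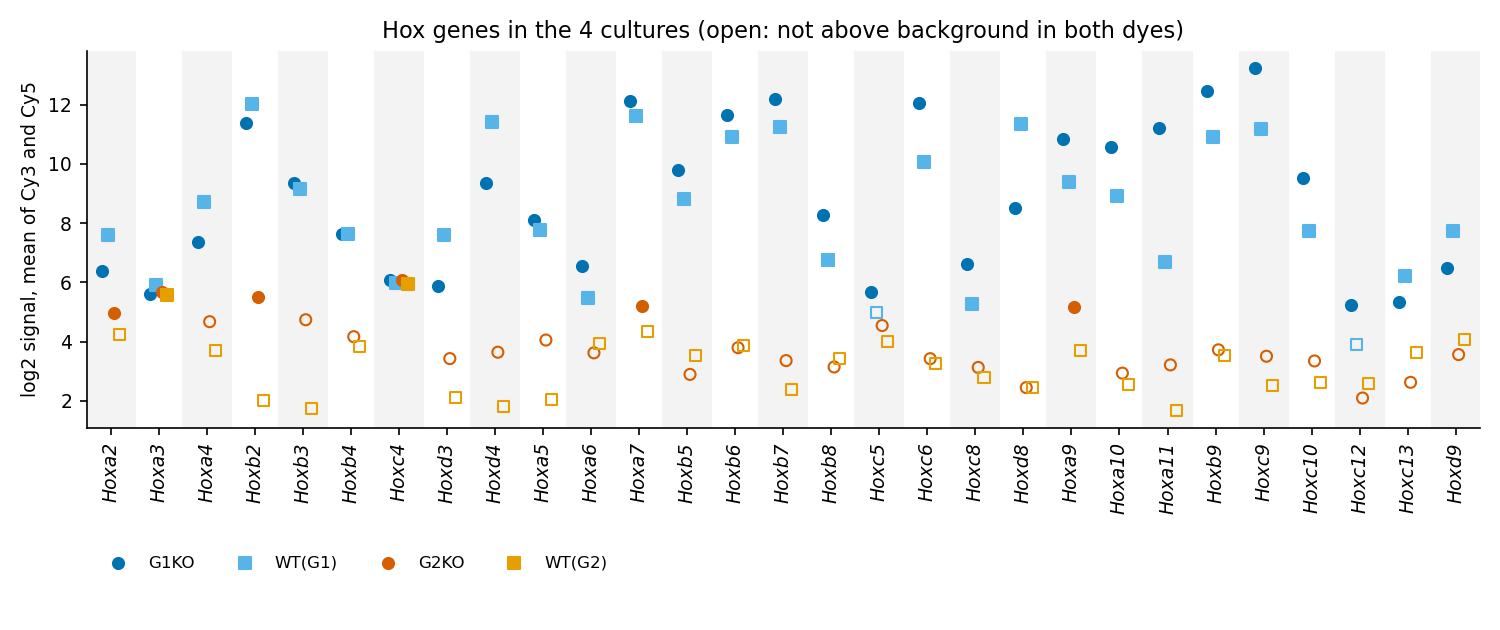
Log2 signal (mean of Cy3 and Cy5) of the detected Hox genes, 1 left out, in the 4 cultures, with open symbols where the spot was not above background in both dyes. G1KO and WT(G1) are high for most genes of groups 5 to 13, where G2KO and WT(G2) are mostly open symbols at the bottom, and the 4 cultures come close together for Hoxa3 and Hoxc4.

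Mesothelial genes made up the next large difference. The mesothelium is the epithelial sheet that lines the body cavities and covers the organs, and it combines simple keratins with the transcription factor Wt1. Of 24 genes on this list that were on the array, 22 were detected, 18 were higher in G1KO and 2, Podxl and Nkain4, were higher in G2KO, with a median of 4.25 or, with bounds, 3.36. By any probe 22 were above background in G1KO, 10 in G2KO, 24 in WT(G1) and 11 in WT(G2). Wt1 read 9.54 in Cy3 and 11.15 in Cy5 in G1KO and 3.28 and 2.24 in G2KO and was at least 51.8-fold higher in G1KO, and Upk3b, the uroplakin gene of mesothelium, at least 71.8-fold higher. Krt8, the partner keratin gene of Krt18, was low in G1KO, at 6.00 in Cy3 and 6.79 in Cy5, and at least 3.36-fold higher than in G2KO. Bnc1, which encodes the zinc finger protein basonuclin, was at least 15.5-fold higher, and Aldh1a2, which encodes the enzyme that makes retinoic acid, at least 32.7-fold higher. Wt1 and Upk3b were not high in G1KO alone: Wt1 reached 12.78 and 13.96 and Upk3b 14.46 and 15.61 in WT(G1), both above G1KO. Some other members were higher in G1KO than in WT(G1), among them Aldh1a2 by 3.75 and Krt19 by 3.05 on the log2 scale. The median of the list was -2.79 for G1KO minus WT(G1) and 8.24 for WT(G1) minus WT(G2). By these medians the list was highest in WT(G1). The 8 defining markers had a summed linear signal of 32120 in Cy3 and 105700 in Cy5 in G1KO, 2513 and 5364 in G2KO, 151100 and 324900 in WT(G1) and 989 and 2054 in WT(G2). Of these 8, Wt1, Upk3b, Lrrn4, Krt8, Krt18 and Muc16 were not above background in G2KO. Msln, the mesothelin gene, was well above it there and made up most of the G2KO sum. It read 11.23 in Cy3 and 12.35 in Cy5 in G2KO and 13.12 and 15.18 in G1KO. How far this marker set moved with the other differences between the cultures was not tested.

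Markers of further cell types that MEF cultures can hold were mostly low or not above background. Of 5 endothelial markers only Kdr was above background, in G1KO and WT(G1), at least 8.21-fold over G2KO, and Pecam1, Cdh5, Tie1 and Tek were not above background in any culture. Among 5 macrophage markers, Ptprc, Adgre1 and Tyrobp were not above background in any culture. Cd68 was above it in all 4 cultures, at 5.60 in Cy3 and 6.37 in Cy5 in G1KO and 5.34 and 6.43 in G2KO. Csf1r was above it in G1KO, at 4.65 and 5.43, and in WT(G1), but not in G2KO or WT(G2). Lyz2, the lysozyme gene of myeloid cells, was at least 17.1-fold higher in G2KO. Among epithelial genes Epcam was not above background in any culture and Cdh1 was low, at 5.61 in Cy3 and 6.38 in Cy5 in G1KO and 4.48 and 4.23 in G2KO. Krt14, named above, was an exception, at 10.92 and 12.45 in G1KO and 4.99 and 4.95 in G2KO. It read 13.08 and 14.35 in WT(G1) and 4.55 and 5.14 in WT(G2). Krt5 was above background in all 4 cultures at low levels. Trp63, the p63 gene of stratified epithelia, was at least 6.18-fold higher in G2KO and not above background in G1KO or either WT culture. The desmosomal gene Dsp was 4.67-fold higher in G1KO by one probe, and a second differed by 0.46. Of the germ cell markers, Dazl, Pou5f1 and Nanog were not above background, while the RNA helicase gene Ddx4 read 7.41 in Cy3 and 8.88 in Cy5 in G1KO and 4.09 and 4.36 in G2KO and reached 13.65 and 14.87 in WT(G1). Erg, an endothelial transcription factor gene, was at least 3.48-fold higher in G2KO and was higher still in WT(G2), at 9.47 and 10.64. Emcn, which encodes endomucin, was at least 2.01-fold higher in G1KO.

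General mesenchymal genes were present in both knockout cultures but many were lower in G2KO. Of 15 on the list, all detected, 8 were higher in G1KO and 0 higher in G2KO, with a median of 1.12, and of the 14 above background in both cultures 7 were called. Pdgfra, the receptor of platelet-derived growth factor that marks fibroblast progenitors, read 10.56 in Cy3 and 11.98 in Cy5 in G1KO and 5.68 and 6.85 in G2KO, a difference of 5.01 ± 0.17 (32.1-fold). Its levels of 9.57 and 10.90 in WT(G1) and 10.99 and 12.27 in WT(G2) placed both WT cultures with G1KO. The collagen receptor gene Ddr2 was 26.5-fold higher in G1KO and Twist2 14.3-fold, and Fap at least 4.14-fold by its leading probe, with a second probe at 1.10 that was not called because it was less than 2-fold apart in one dye. Thy1, Prrx1, Pdpn and Ly6a were also called. Twist1, Vim and Pdgfrb were not, at -0.08, -0.25 and -0.55. In 6 of the 8 called genes both WT cultures lay nearer to G1KO, so here it was G2KO that stood apart.

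The extracellular matrix followed the same arrangement. Of 24 detected fibroblast matrix genes, 11 were higher in G1KO and 0 higher in G2KO (median 0.97), and of 23 above background in both cultures 10 were called. Both WT cultures lay nearer to G1KO in 9 of the 11. Efemp1, which encodes fibulin-3, read 13.61 in Cy3 and 15.24 in Cy5 in G1KO and 8.16 and 9.87 in G2KO, a difference of 5.41 ± 0.05 (42.5-fold), with WT cultures at 14.83 and 16 in WT(G1) and 14.83 and 15.89 in WT(G2). Postn, the gene of periostin, was 21.1-fold higher in G1KO by its leading probe, Lox, the gene of the collagen cross-linking lysyl oxidase, 17.5-fold, and Fbln2, which encodes fibulin-2, 11.5-fold. Col3a1, Col6a2, Col6a3, Col11a1, Col14a1, Fn1 and Thbs2 completed the called genes, whereas the major collagen genes Col1a1 and Col1a2 differed by 0.36 and 1.15. The second of these was 2-fold apart in Cy3 only and was not called. Of 8 detected small leucine-rich proteoglycans, which bind collagen fibrils, 5 were higher in G1KO and 0 higher in G2KO. Decorin (Dcn) was 17.7-fold, asporin (Aspn) 13.3-fold, biglycan (Bgn) 11.9-fold and osteoglycin (Ogn) 3.70-fold higher in G1KO. The WT cultures spread widely here: Dcn read 14.93 and 16.11 in WT(G1) and 8.28 and 9.52 in WT(G2), and Aspn 6.46 and 7.71 in WT(G1) and 11.77 and 13.02 in WT(G2). Of 21 matrix proteases and inhibitors 6 were higher in G1KO, among them Adamts2 (28.6-fold by its brightest probe), Adamts5 (5.73-fold), the tissue plasminogen activator gene Plat (4.13-fold) and Mmp3 (4.01-fold), and 2, Mmp16 and Serpine2, were higher in G2KO.

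Contractile genes were split. Cnn1, which encodes calponin, was 8.31-fold higher in G1KO at 14.60 in Cy3 and 15.88 in Cy5 in G1KO and 11.51 and 12.87 in G2KO, Ednra, the endothelin A receptor gene, 9.67-fold by its leading probe and Myh11, the smooth muscle myosin gene, at least 6.96-fold. Myocd, the gene of the coactivator myocardin, was at least 3.90-fold higher in G2KO, and Acta2 and Tagln differed by 0.18 and 0.56. Another probe of Ednra differed by 0.78 and was not called. In all, 4 of 16 detected genes of the list (25%) were called, beside 15.1% of all genes. Of 10 detected skeletal muscle genes, Tnnc1 (4.16-fold) and Tnnt1 (2.28-fold) were higher in G1KO, a share (20%) near that over all genes. Of 10 cartilage and bone genes, Sox9 (3.91-fold), Spp1, the gene of osteopontin (4.67-fold), and Phex (2.34 ± 0.03) were. Of 13 adipogenic genes 5 were higher in G1KO, with Dlk1 and Lpl, the lipoprotein lipase gene (55.8-fold), first, then Fabp4 (3.18-fold) and Ebf2 (3.01-fold). Cebpa and Plin2 were higher in G2KO, so that 53.85% of the detected adipogenic genes were called. Another probe of Fabp4 differed by 1.09, with 0.98 in Cy5, and was not called.

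The homeobox and T-box factors that pattern the face and limbs were called in both directions. Of 27 detected, 10 were higher in G1KO and 7 higher in G2KO, and of the 19 above background in both cultures 5 and 5. Together 62.96% of those detected were called, where 15.1% of all genes were. Pitx1 has been given above. Lhx8 was at least 18.5-fold higher in G1KO, and was below background in WT(G1) and well above it in WT(G2), where it read 7.34 and 8.35. Alx4, Prrx1, Dlx2, Lhx9, Shox2, Meox1 and Tbx5 were also higher in G1KO. Msx2, a target of bone morphogenetic proteins, read 6.18 in Cy3 and 7.40 in Cy5 in G1KO and 10.89 and 12.14 in G2KO and was 26.5-fold higher in G2KO, with WT cultures at 3.88 and 3.52 in WT(G1) and 7.80 and 9.18 in WT(G2). Alx1, Msx1, Prrx2, Pax9 and Lhx2 were higher in G2KO as well.

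Regulators of the midbrain and floor plate were called mainly towards G2KO. Of 13 detected genes of midbrain and floor plate, out of 24 on the array, 5 were higher in G2KO (En1, En2, Cnpy1, Nkx2-2 and Nkx6-1) and 1, the nuclear receptor gene Nr4a2, was higher in G1KO (7.06-fold). Over all 24, 9 were above background in G1KO, 13 in G2KO, 8 in WT(G1) and 10 in WT(G2). Among the 9 above background in both knockout cultures, 2 were higher in G2KO and 1 higher in G1KO, with a median of -0.31. Cnpy1, which supports fibroblast growth factor signalling at the boundary of midbrain and hindbrain, was at least 75.1-fold higher by its brightest probe, with 3.57 in Cy3 and 5.09 in Cy5 in G1KO and 10.45 and 11.53 in G2KO and G1KO above background in 1 dye, and its other 2 probes were called as well. Nkx2-2, the homeobox gene of the ventral neural tube, was at least 16-fold higher. Each of these 5 genes had both WT cultures nearer to G1KO. Their usual partners in the midbrain Otx2, Pax5, Pax8, Wnt1, Lmx1a and Lmx1b were not above background in either knockout culture, and neither were Shh and Foxa1 of the floor plate. These absences do not cover Foxa2, which the study listed as raised in G2KO MEFs against WT and which is not reported here. Nr4a2 is also an immediate-early gene of fibroblasts.

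Of 20 detected glial and neural crest genes, 7 were higher in G2KO and 5 higher in G1KO, with a median of -0.24. That is 60% called, where 15.1% of all genes were. Among the 11 above background in both cultures the order was the other one, with 4 higher in G1KO and 3 higher in G2KO. Besides Sox2 and Zfp536, Sox6 was at least 47.7-fold higher in G2KO, with all 4 detected probes called. Gpm6b, which encodes a proteolipid membrane protein, was 29.7-fold higher in G2KO, reading 8.0 in Cy3 and 9.20 in Cy5 in G1KO and 12.86 and 14.14 in G2KO against 4.73 and 5.65 in WT(G1) and 6.33 and 7.69 in WT(G2). Tfap2a, Nes and Gfra2 were called in the same direction, and Sox9, Mbp, S100b, Fabp7 and Slc1a3 in the other. Sox10, which defines neural crest and its glia, was at the edge of background in all 4 cultures, with signals between 4.34 and 5.13, and was above it in both dyes only in WT(G2). Of 10 detected neuronal genes, 5 were higher in G1KO and 1, Gap43, was higher in G2KO. Among the 6 above background in both cultures, 2 were higher in G1KO and 1 in G2KO, with a median of -0.14. By any probe, 10 genes of the list were above background in G1KO, 6 in G2KO, 8 in WT(G1) and 7 in WT(G2). Elavl2, an RNA-binding protein gene of neurons, was at least 93.8-fold higher in G1KO at 10.49 in Cy3 and 11.91 in Cy5 in G1KO and 3.90 and 4.61 in G2KO and was near background in both WT cultures, and Plppr4 was 18.8-fold higher. Gpm6a was at least 5.96-fold higher and Nefl, the neurofilament light chain gene, at least 2.29-fold by its brightest probe, while another differed by 3.00 and was not called. The pan-neuronal genes Dcx, Stmn2, Snap25 and Rbfox3 were not above background in either knockout culture.

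Secreted signals and their antagonists were called in both directions. Of 20 detected Wnt ligands and antagonists, 8 were higher in G1KO and 4 higher in G2KO (60%, where 15.1% of all genes were called). Among the 16 above background in both cultures 5 and 3 were called, with a median of 0.30 where that of all 20 was 0.64. The antagonist genes Sfrp2 and Frzb were 35.2-fold and at least 13.9-fold higher in G1KO and the ligand gene Wnt2 at least 11.9-fold, whereas Wnt10b was at least 12.1-fold higher in G2KO, with G1KO above background in 1 dye. Sfrp2 crossed the pairs, at 11.84 in Cy3 and 13.10 in Cy5 in G1KO and 6.66 and 8.01 in G2KO and at 6.63 and 8.04 in WT(G1) and 11.59 and 12.79 in WT(G2), so that G1KO lay with WT(G2) and G2KO with WT(G1). Of 24 BMP and TGF-beta ligands and antagonists, 7 were higher in G1KO and 3 in G2KO (41.7%), and of the 20 above background in both cultures 4 and 2. Gdf6 was at least 10.0-fold and Ltbp2 9.54-fold higher in G1KO, and Chrdl1, a BMP antagonist gene, 5.01-fold higher in G2KO by its brightest probe. A second probe of Chrdl1 differed by -1.75 and did not reach 2-fold in Cy3 (-0.98). Among FGF ligands Fgf5 was 21.3-fold and Fgf7 11.4-fold higher in G1KO, and Fgf13 3.23-fold and Fgf9 at least 2.31-fold higher in G2KO. Another probe of Fgf13 differed by -1.33, with -0.59 in Cy3, and was not called.

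In the insulin-like growth factor (IGF) axis 5 of 14 detected genes were higher in G1KO and 2 higher in G2KO. That is 50% called, where 15.1% of all genes were. The ligand gene Igf2 was 5.61-fold higher in G1KO, reading 10.82 in Cy3 and 11.81 in Cy5 in G1KO and 8.04 and 9.62 in G2KO. The binding protein genes took opposite directions: Igfbp6 was 6.84-fold higher in G1KO, and Igfbp5 and Igfbp3 were 21.3-fold and 14.3-fold higher in G2KO. In the retinoid pathway 4 of 15 detected genes were higher in G1KO and 3 higher in G2KO (46.7%). The enzyme genes of retinoic acid synthesis took opposite directions, Aldh1a2 higher in G1KO and Aldh1a3 higher in G2KO. Cyp26b1 was higher in G2KO, while Rarb, a receptor gene that retinoic acid induces, was 12.2-fold higher in G1KO. Rbp4, which encodes a retinol carrier, was higher in G2KO.

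Imprinted growth-control genes were mostly higher in G1KO. All 19 were detected, 12 were higher in G1KO and 2, Mest and Snrpn, higher in G2KO, with a median of 1.25, and of the 16 above background in both cultures 9 and 2 were called. After Dlk1 came Peg3, at 11.13 in Cy3 and 12.34 in Cy5 in G1KO and 5.60 and 6.25 in G2KO and 56.3-fold higher by its brightest probe, with WT cultures at 10.10 and 11.46 in WT(G1) and 4.97 and 5.94 in WT(G2). One of the 3 probes of Peg3 differed by 0.62 and was not called. Magel2 was at least 9.06-fold higher. Both paternally expressed genes (Igf2, Dlk1, Peg3, Plagl1) and maternally expressed genes (H19, Meg3, Cdkn1c, Phlda2) were among those higher in G1KO. In all, 73.7% of the list were called, where 15.1% of all genes were.

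Chemokine and cytokine genes were also higher in G1KO in 12 of 19 detected cases and higher in G2KO in 2, Cxcl14 and Csf2, with a median of 2.16, or 1.37 with bounds. Over the 27 on the array, 18 were above background in G1KO, 12 in G2KO, 19 in WT(G1) and 18 in WT(G2), and of the 11 above background in both knockout cultures 5 were higher in G1KO and 1 higher in G2KO. Cxcl5, a neutrophil attractant, read 11.86 in Cy3 and 13.16 in Cy5 in G1KO and 4.03 and 4.74 in G2KO and was at least 228-fold higher in G1KO, G2KO being above background in 1 dye, with WT cultures at 5.00 and 6.61 in WT(G1) and 10.21 and 11.62 in WT(G2). Cxcl10 was at least 20.1-fold, Cxcl1 at least 14.4-fold and Ccl5 at least 11.1-fold higher, the last with G2KO above background in 1 dye. Of 22 interferon response genes 5 were higher in G1KO, among them Oasl2 (at least 5.11-fold), Isg15 (4.71-fold), Ifit1 (4.58-fold) and Oas1a (at least 2.03-fold), and 2, Mx2 and Gbp2, were higher in G2KO. That is 31.8% called, and of the 18 above background in both cultures 3 and 2. Of 11 genes of MHC class I presentation, 3 (27.3%) were higher in G2KO and 0 higher in G1KO, where 15.1% of all genes were called and 7.24% were higher in G2KO, and of the 10 above background in both cultures 2 were called. The 3 were Tap1 (at least 3.24-fold, G1KO above background in 1 dye) and Tap2 (2.14-fold), which load peptides, and H2-T23 (2.17-fold).

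**Figure D4:**
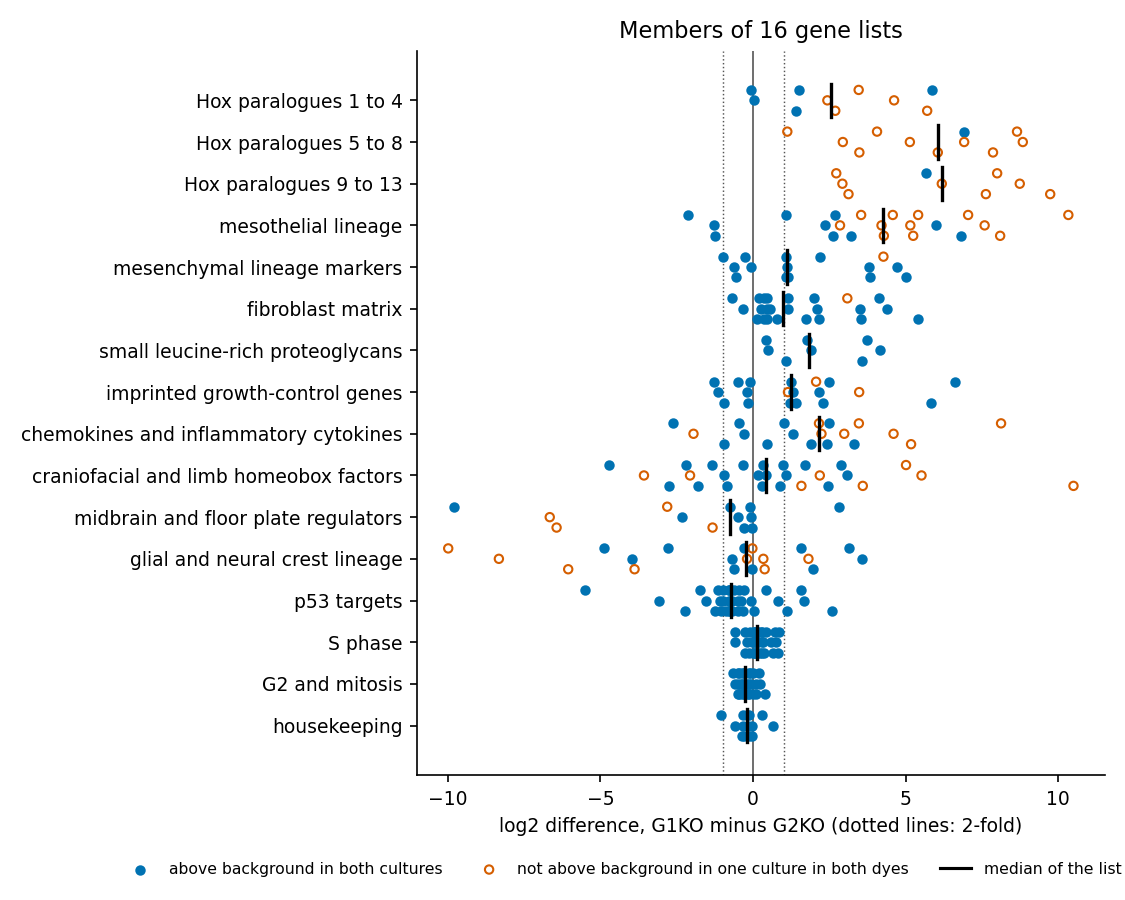
Log2 difference G1KO minus G2KO (horizontal axis, dotted lines at 2-fold) of each detected member of 16 gene lists, filled where the gene was above background in both cultures, with a line at the median of each list. The Hox and mesothelial lists lie far to the right, mostly with open symbols, the matrix lists lie to the right with filled symbols, and the S phase, G2 and mitosis and housekeeping lists lie around 0.

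Genes tied to the known roles of the cyclins were examined next. Of 36 detected p53 targets, 9 were higher in G2KO and 4 higher in G1KO, with a median of -0.74, or 36.1% called where 15.1% of all genes were (7.24% higher in G2KO and 7.88% higher in G1KO). The first was Ccng1 itself, whose difference is that of the targeted allele. Cdkn1a, which encodes the CDK inhibitor p21 and is the standard p53 target, read 11.03 in Cy3 and 12.26 in Cy5 in G1KO and 12.10 and 13.32 in G2KO, a difference of -1.06 ± 0.00 (2.09-fold). Its WT levels of 11.71 and 12.97 in WT(G1) and 9.06 and 10.62 in WT(G2) spread further than the knockout levels did. The epoxide hydrolase gene Ephx1 was 4.69-fold and Pltp 8.44-fold higher in G2KO, and Zmat3, Tnfrsf10b, Eda2r, Dcxr and Sulf2 were called too. Cd82 was 6.04-fold higher in G1KO, with Perp, Plk2 and Plk3. The WT cultures differed over this list too, with a median of 1.10 for WT(G1) minus WT(G2). It was -0.60 for G1KO minus WT(G1) and 1.13 for G2KO minus WT(G2). In 5 called genes each WT lay nearer to the other knockout, and in 3 nearer to its own. Both WT cultures lay nearer to G1KO in 4 and nearer to G2KO in 1. Of 11 listed genes of the damage response and cell cycle whose proteins the study had followed, Cdkn1a was the only one called (Wt1 and several Hox genes, whose proteins it had followed too, are not on this list): Mdm2 differed by -0.72 ± 0.05, Trp53 by 0.48 ± 0.04, H2ax by -0.05 ± 0.05, Chek2 by -0.04 ± 0.05, Atm by -0.31 ± 0.15, Cdk1 by -0.21 ± 0.09, Plk1 by 0.08 ± 0.01, Rpa1 by -0.08 ± 0.05 and Polk by -0.79 ± 0.01. The remaining one, Cdkn1b, is given with the other inhibitors and was not called either. A second, dimmer probe of Chek2 differed by -0.76 and was not called.

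Among the CDK inhibitors, Cdkn2b and its neighbour on chromosome 4, Mtap, which encodes a methionine salvage enzyme, were lower in G2KO. Mtap read 12.64 in Cy3 and 13.90 in Cy5 in G1KO and 7.96 and 9.37 in G2KO, a difference of 4.60 ± 0.11 (24.3-fold), with WT cultures at 10.80 and 12.34 in WT(G1) and 10.66 and 11.95 in WT(G2). Cdkn2b, which encodes p15, read 11.32 in Cy3 and 12.69 in Cy5 in G1KO and 7.94 and 9.53 in G2KO, a difference of 3.27 ± 0.16 (9.63-fold), and was lowest in G2KO of the 4 cultures, with 12.70 and 13.86 in WT(G1) and 13.27 and 14.52 in WT(G2). Cdkn2a, which encodes p16 and p19ARF, read 10.13 in Cy3 and 11.26 in Cy5 in G1KO and 8.70 and 10.43 in G2KO, a mean difference of 1.13 ± 0.43, but in Cy5 the difference was only 0.83 and it was not called. Cdkn1c, an imprinted inhibitor gene that encodes p57, was 4.47-fold higher in G1KO. Cdkn1b, Cdkn2c and Cdkn2d differed by -0.85 ± 0.06, -0.27 ± 0.10 and -0.70 ± 0.23 and were not called.

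Genes of proliferation and repair had no calls at this threshold, where 15.1% of all genes and 12.2% of those above background in both cultures were called. Of 37 detected S phase genes 0 were called, with differences from -0.60 to 0.85 around a median of 0.14. Of 30 genes of G2 and mitosis 0 were called, between -0.67 and 0.39 (median -0.27), and of 25 DNA damage checkpoint and repair genes 0 were called, between -0.51 and 0.46 (median -0.12). The 9 PP2A subunit genes whose products bind cyclin G lay between -0.41 and 0.36 around a median of 0.01, with 0 called. The X-linked genes that escape inactivation, among them Kdm5c (0.11 ± 0.02), Kdm6a (-0.05 ± 0.13), Ddx3x (0.43 ± 0.03) and Eif2s3x (-0.09 ± 0.02), had 0 of 5 called, and Xist read 13.46 in Cy3 and 14.72 in Cy5 in G1KO and 13.16 and 14.30 in G2KO, a difference of 0.35 ± 0.08, against 4.81 and 5.60 in WT(G1) and 4.58 and 5.38 in WT(G2). Of 14 housekeeping genes 0 were called.

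In the 3 metabolic lists between 20% and 21.7% of detected genes were called, against 15.1% of all genes. Of 20 NRF2 response genes, Gsta1 (12.5-fold), Gsta4 (5.66-fold) and Nqo1 (2.53-fold) were higher in G1KO and Slc7a11, the cystine transporter gene, was 2.24-fold higher in G2KO by 1 of its 4 probes. Of 23 glycolysis and hypoxia genes, Slc16a3 (5.74-fold) and Adm (4.50-fold) were higher in G1KO, and Ddit4 (3.24-fold), Bnip3 (2.45-fold) and Pdk1 higher in G2KO. Of 23 genes of cholesterol synthesis and uptake, Tm7sf2 (7.05-fold), Sc5d (2.24-fold), Mvk (2.23-fold) and Insig1 were higher in G2KO and 1 gene was higher in G1KO, around a median of -0.37. A second probe of Sc5d differed by -0.38 and one of Mvk by -0.81, and neither was called.

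Set out by chromosome, the differences were not even. The genes of chromosome 10 had a median difference of -0.36, with only 23.2% of 789 genes higher in G1KO at all, and those of chromosome 4 a median of 0.27, with 68.9% of 989 higher in G1KO. Chromosome 8 had a median of 0.17 (65.8% of 854), chromosome 9 one of -0.18, chromosome 18 one of -0.15 and chromosome 1 one of 0.11, and the other autosomes and X lay between -0.14 and 0.03. Both dyes gave the same picture, with -0.36 and -0.37 for chromosome 10 and 0.27 and 0.26 for chromosome 4. On chromosome 10 the median of G1KO minus WT(G1) was -0.28 and that of G2KO minus WT(G2) 0.24, and on chromosome 4 they were 0.14 and -0.14. Mtap and Cdkn2b lie on chromosome 4.

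**Figure D5:**
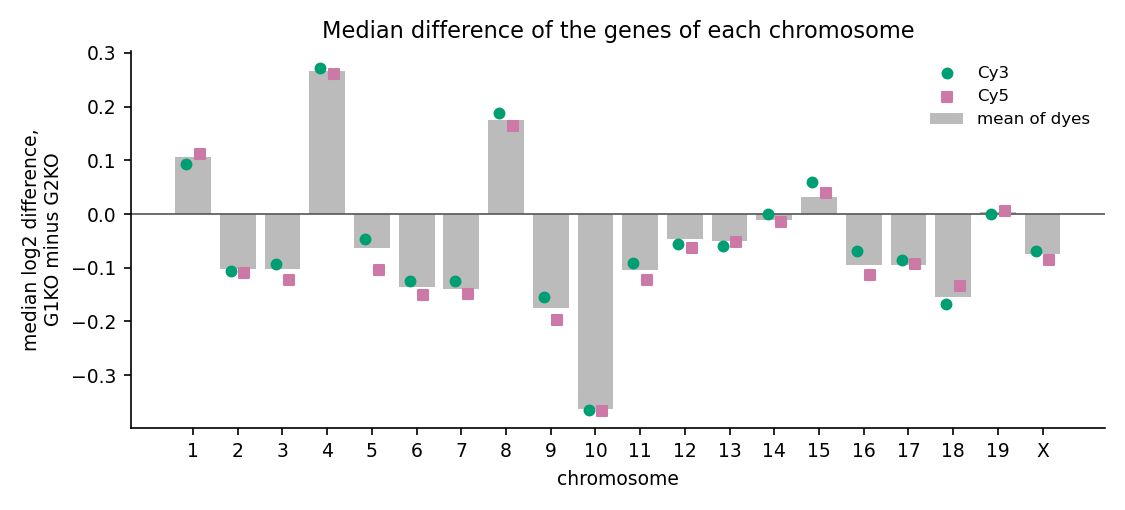
Median log2 difference G1KO minus G2KO (vertical axis) of the genes of each chromosome, as bars for the mean of dyes with points for Cy3 and Cy5. Chromosome 10 reaches -0.36 and chromosome 4 reaches 0.27, and the 2 dyes lie close together on every chromosome.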

How the data were processed

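RNA of 4 MEF cultures had been labelled from an oligo-dT primer by T7 amplification and hybridised in 2 dye-swapped pairs to 4 Agilent whole mouse genome arrays of one slide and scan. The deposited files held the scanner's intensity per spot and channel, made by the authors with Feature Extraction, of which the labels name version 9.1 and the headers of the deposited files 10.5.1.1. Their log2 or log10 ratios were not used, since they set each knockout against its own WT. From the mean signal the median local background was subtracted, the 4 channels of a dye were quantile-normalised over gene probes, values below 1 were set to 1, and log2 was taken. Outlier spots were left out, spots of a probe were averaged, and a probe counted as well above background when the scanner's mark held for most of its spots. Of the 25539 probes, 55 had a value at this lowest level. For bounds, a dim signal was raised to the 1st percentile of signals well above background in its channel, since the lowest such signal was far below the others. Per gene, the probe with the highest mean level over the knockout cultures was taken. Gene names came from RefSeq by accession (24375 probes), by symbol (6301) or by an older symbol (2426), and otherwise from the file (8072 probes).

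Genes named with values were those of the lists of targeted cyclins, damage response and cell cycle proteins the study followed, CDK inhibitors and sex-linked genes, the 12 largest differences in each direction measured in both cultures, the 5 largest bounds in each direction, and up to 4 called members of each of 43 lists. Other detected probes of called genes are mentioned where they were not called. A few uncalled members of the lists (Twist1, Vim, Pdgfrb, Col1a1, Col1a2, Acta2, Tagln) were chosen after their values were seen. Some genes that this rule names or a list counts are not reported here. The members, lists and rules were chosen with earlier results of these data known. Background correction, normalisation, signal column, dye, filter, threshold and choice of probe were varied. Python 3.11.15 with numpy 2.4.6 and pandas 2.3.3 was used, with limma 3.58.1 in R 4.3.3 for alternative normalisations, and the procedure was tested on simulated data. For arrays, the number of cultures limits the precision.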

Additional observations from a re-analysis of the deposited data

How the results depend on the processing

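Of the 148 called genes that are named, 0 changed direction over the 9 of 13 alternatives that change a gene's own value, of which raising dim signals to the floor used for bounds was chosen after seeing the data. Using Cy5 alone or Cy3 alone could not change a direction, since a call requires the same sign in both dyes. Most named genes were also picked for the size of their difference in these data, which makes a change of direction unlikely beforehand. The number of called probes, 3474 (1809 higher in G1KO and 1665 higher in G2KO), depended most on normexp with an offset, which changes the background method and compresses dim signals at once, and on the threshold. It was 2100 (1136 and 964) with normexp and an offset of 50, 2235 (1191 and 1044) with normexp, loess and Aquantile, 1151 (723 and 428) at 4-fold and 6853 (3177 and 3676) at 1.5-fold. With both cultures required to be above background it was 2475, of which 1194 were higher in G1KO and 1281 higher in G2KO. Elsewhere it lay between 3117 and 4569. The share of calls higher in G1KO was 52.1%, and 62.8% at 4-fold. The median of Hox groups 5 to 8 ranged from 2.81 to 6.86, that of the mesothelial list from 2.48 to 5.53, that of the fibroblast matrix from 0.78 to 0.97 and that of p53 targets from -0.76 to -0.68. The neuronal, interferon, PP2A, endothelial, haematopoietic, germ cell and X-linked lists changed the sign of their median under at least 1 alternative. The neuronal median of 1.55 became -0.14 with both cultures above background. The chromosome medians, tried under the same alternatives after seeing the data, ranged from -0.39 to -0.30 for chromosome 10 and from 0.20 to 0.27 for chromosome 4. The cause of these shifts was not tested. Signal over background limited the differences of genes silent in one culture, which are bounds. No paired analysis was possible because each knockout was 1 culture and the 2 shared no array, and leaving out the arrays of either dye gave 4569 (Cy5 alone) and 3692 (Cy3 alone) calls.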
